A study of Arabidopsis thaliana with 14 samples.

Results

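H3K27me3 peaks called in the transgenic wild type (TWT) were laid over every gene whose RNA changed in the fen1 mutant of Arabidopsis thaliana. All 9201 peaks on chromosomes 1 to 5 were set against all 1114 genes of the authors' deposited RNA table, and each gene was placed in a class by the share of its body, from annotated start to end, that lay under peaks. Of the 1114 listed genes, 345 had 50% or more of the body covered, 67 were covered over less than 50%, and 702 were not covered.

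H3K27me3 is trimethylation of lysine 27 on histone H3. In plants it is written by Polycomb repressive complex 2, whose catalytic subunits in seedlings are CLF and SWN, and it is bound by LHP1 and by the ring-finger proteins of Polycomb repressive complex 1. The mark keeps developmental regulators, seed genes and many tissue-specific or inducible genes silent or low, and in Arabidopsis it typically lies over single transcribed units. It has to be restored on new nucleosomes behind the replication fork, where flap endonuclease 1 (FEN1) trims the 5′ flaps of Okazaki fragments. The series was designed to examine FEN1 in genome stability and silencing.

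Both genotypes were whole seedlings of the C24 ecotype, 10 days old, grown on sucrose plates without treatment. The control is a transgenic line, the transgene of which the labels do not name, and the mutant is labelled fen1 with no allele given. RNA was sequenced from 2 libraries per genotype, and the deposited table gives 1 value per genotype, so no SD can be given and the call of each gene is the authors' own test. The values were read as FPKM, fragment counts scaled by transcript length and library size. The labels do not say that the 2 libraries came from separate cultures, so the p-values may measure technical spread alone. H3K27me3 was profiled in 1 TWT library, and the fen1 ChIP libraries were not analysed here, so every statement on the mark is about TWT. Read depth is unknown from these files. In whole seedlings, fewer cells of a type and less RNA per cell cannot be told apart, and a peak may come from some of the cells only.

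FEN1 itself (AT5G26680, chromosome 5, 9311875 to 9315475, minus strand, TAIR10) carried no H3K27me3 over its body or its 1 kb upstream. Per the authors' deposited table it stood at 14.5 FPKM in TWT and 22.7 FPKM in fen1 (log2 fold change 0.65, q = 0.00462). With no allele stated, that level does not check the genotype.

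Cover of the touched genes ran over the whole range, with most genes at the upper end. Of the 412 genes touched by a peak, 105 were covered from end to end and a further 96 over 90 to under 100% of the body. Between 50 and 90% the 4 steps of 10 percentage points held 32, 34, 26 and 52 genes, and the 67 genes under 50% included 5 under 10%. The median cover was 94.2% in the 50% class and 31.9% in the genes covered over less than 50%. A single peak made up the cover of 276 of the 345 genes. No peak covered 50% or more of more than 1 listed gene. Genes outside the list were not laid against the peaks, so whether the same peaks also covered unlisted neighbours is not known. Cover fell with length across the 412 covered genes (Spearman's rho −0.51, across genes, which share 1 library), and the median length was 1741 bp in the 50% class, 2601 bp in the class covered less and 1758 bp in the uncovered genes. Cover is a percent of the length, so the same peak covers less of a longer gene, and this fall follows in part by construction.

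**Figure D1:**
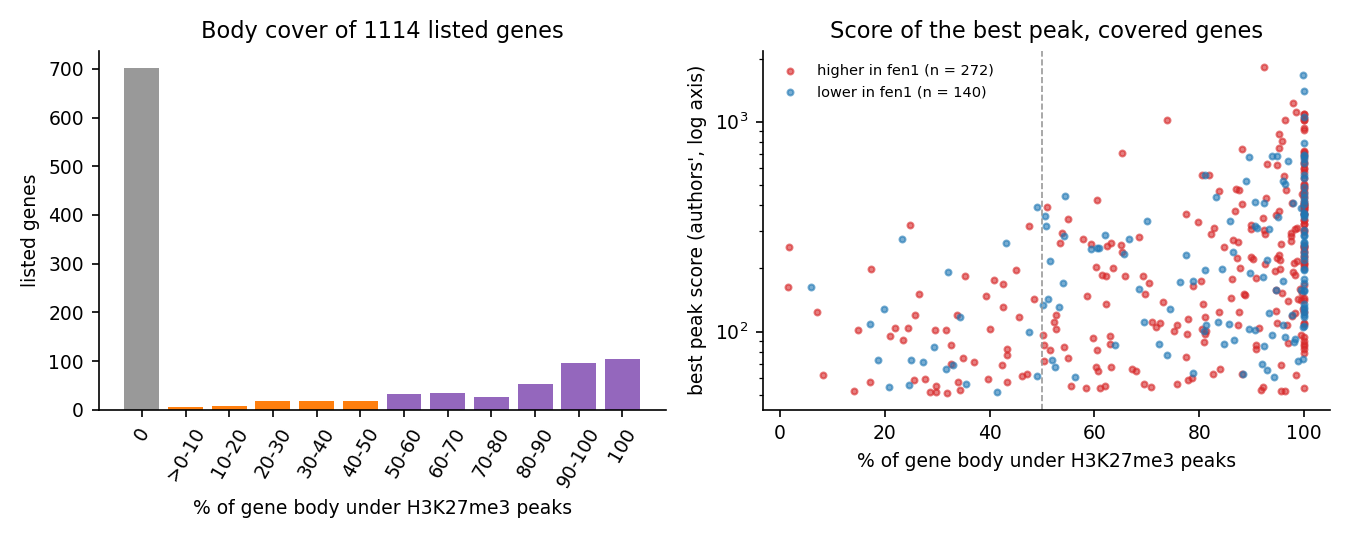
Left, number of listed genes (y) by percent of the gene body under TWT H3K27me3 peaks (x), with uncovered genes in grey, genes covered under 50% in orange and the 50% class in purple; 702 genes stand at 0 and 105 at full cover. Right, best peak score (the authors' value, log axis) against percent of the body covered for the 412 covered genes, each point 1 gene, red where higher and blue where lower in fen1; the dashed line marks 50%, and both directions spread over most of the range of scores.

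The peaks that did this were broader and scored higher than the list as a whole. The 306 single peaks that each covered 50% or more of a listed gene had a median width of 1784 bp and a median score of 203, against 1354 bp and 125 over all 9201 peaks. The scores are the authors' own, from the peak caller, and serve here only to rank peaks of this list. A wider peak covers more of a gene by construction, so the width is no independent property. Nor is the score, since the best score ran with the share covered (Spearman's rho 0.49 across the 412 covered genes). The 500 peaks over any part of a listed body had a median score of 155. The best score over a gene had a median of 217 in the 50% class and 91.0 in the genes covered less. Fully covered genes had a median best score of 351. Within the 50% class the score ran with the share covered (Spearman's rho 0.38 across 345 genes) and hardly with the TWT level (rho 0.04) or with the log2 fold change (rho −0.02 across 342 genes above 0 in both genotypes). These are descriptions across genes with no test.

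Along the gene the mark sat mostly on the transcribed body and was lower outside it. The 345 genes were chosen for body cover, so their high body with a maximum in mid-body follows in part from that choice. Over all 1114 listed genes, not chosen by cover, the mean was 25.1% in the first 5% of the body. It was 30.8% from 50 to 55%, 21.6% in the last 5% and 8.27% between 900 and 1000 bp upstream. Averaged over the 345 genes, peaks covered 72.6% of the first 5% of the body, 95.4% of the stretch from 50 to 55% and 64.7% of the last 5%. In the 100 bp next to the start the mean was 59.6%, between 200 and 300 bp upstream 30.5%, and between 900 and 1000 bp upstream 15.8%. Past the end it was 46.5% in the first 100 bp and 22.3% between 900 and 1000 bp. The first base of the gene lay under a peak in 231 of the 345 genes (67.0%), and the last base in 193 (55.9%). Where a peak crossed the start, it reached a median of 217 bp upstream (quartiles 104 and 398 bp).

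The 1 kb upstream was therefore mostly free of the mark even at covered genes. In the 50% class 58 genes (16.8%, exact Clopper-Pearson 95% interval 13.02 to 21.2%, counting error only) had 50% or more of the upstream kilobase covered, and 108 (31.3%) had none of it covered. Those 58 genes had a median best score of 427, against 184 for the other 287. Their TWT median of 4.99 FPKM per the authors' deposited table was close to the 5.57 FPKM of the others.

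Genes higher and lower in fen1 had much the same placement. The share with 50% or more of the upstream covered was 16.4% for the 225 higher and 17.5% for the 120 lower genes of the 50% class. Median best scores were 214 and 218. The profiles parted a little near the 5′ end, where peaks covered 80.3% of the stretch from 10 to 15% of the body in higher genes and 89.1% in lower genes, and at the end of the gene, whose last base was covered in 59.1% of higher and 50.0% of lower genes. None of these differences was tested. The 67 genes covered over less than 50% were covered most in the first part of the body, with 46.8% in the stretch from 15 to 20% of the body and 15.4% from 35 to 40%, with a second rise to 32.1% from 65 to 70%. This class was chosen for cover under 50%, so its dip in mid-body follows in part from that choice.

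**Figure D2:**
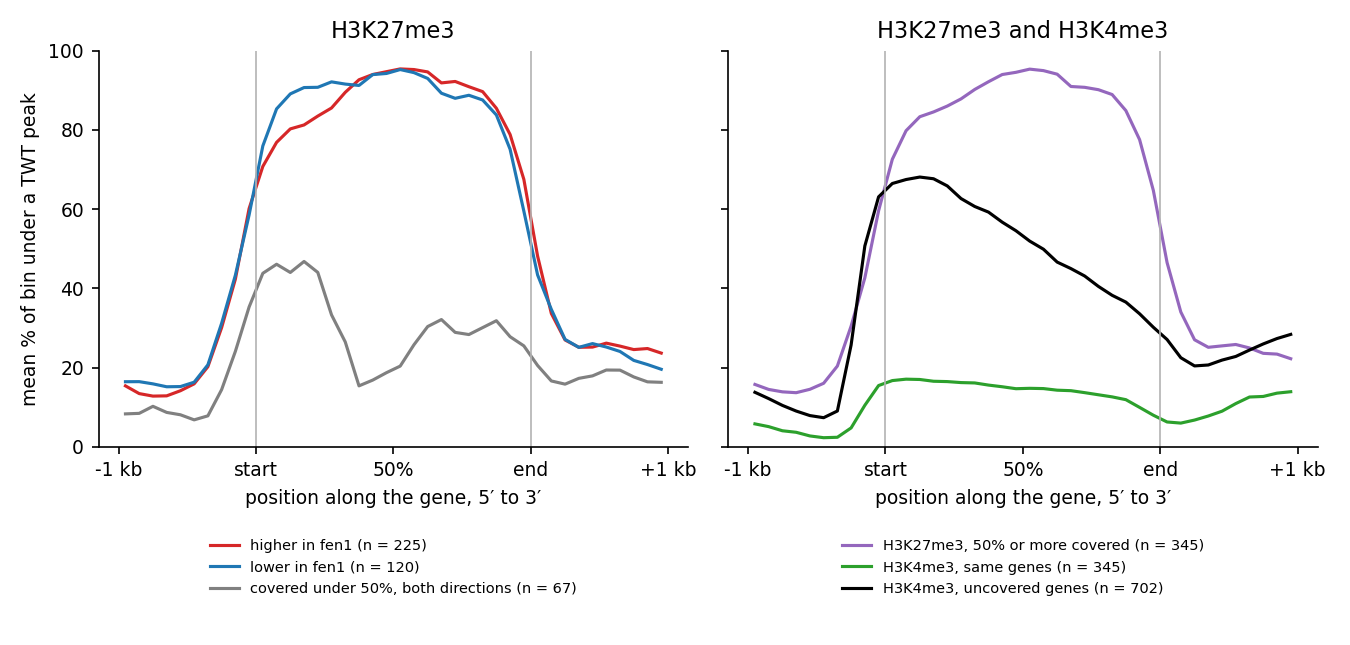
Mean percent of each bin under a TWT peak (y) along genes aligned 5′ to 3′ (x), with 20 equal bins over the body and 10 bins of 100 bp on each side. Left, H3K27me3 over the 50% class, red for genes higher and blue for genes lower in fen1, and grey for genes covered under 50%. Right, H3K27me3 (purple) and H3K4me3 (green) over the 345 genes of the 50% class and H3K4me3 over the 702 uncovered genes (black). H3K27me3 peaks at 95.4% in mid-body and H3K4me3 over uncovered genes near the start. The classes were chosen by H3K27me3 body cover, which shapes their H3K27me3 profiles.

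Covered genes were the more weakly expressed of the listed genes in TWT, yet few of them were silent. The median TWT level per the authors' deposited table was 5.41 FPKM (quartiles 1.96 and 18.7) in the 50% class, 6.24 FPKM in the genes covered less and 14.7 FPKM (quartiles 5.58 and 41.5) in the uncovered genes. On the log2(FPKM + 1) scale the medians of the 50% class and the uncovered genes were 2.68 and 3.97, a difference of −1.29. In TWT 11.9% of the 50% class were under 1 FPKM per the authors' deposited table, against 4.13% of the uncovered. By quartile of TWT level, the 50% class made up 49.5% of the lowest (up to 3.78 FPKM), then 30.2%, 25.5% and 18.6% of the highest. Genes that were not called have no value here, so genes that are silent in both genotypes are missing from every class.

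Levels in fen1 kept the same order. The fen1 medians per the authors' deposited table were 8.75 FPKM for the 50% class, 8.97 FPKM for genes covered less and 16.8 FPKM for uncovered genes. The 225 covered genes that rose went from a median of 4.02 to 9.44 FPKM per the authors' deposited table. The 412 uncovered genes that rose went from a median of 8.84 to 17.8 FPKM. The 120 covered genes that fell went from 12.3 to 5.63 FPKM, and 18.3% of them were under 1 FPKM in fen1 per the authors' deposited table.

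**Figure D3:**
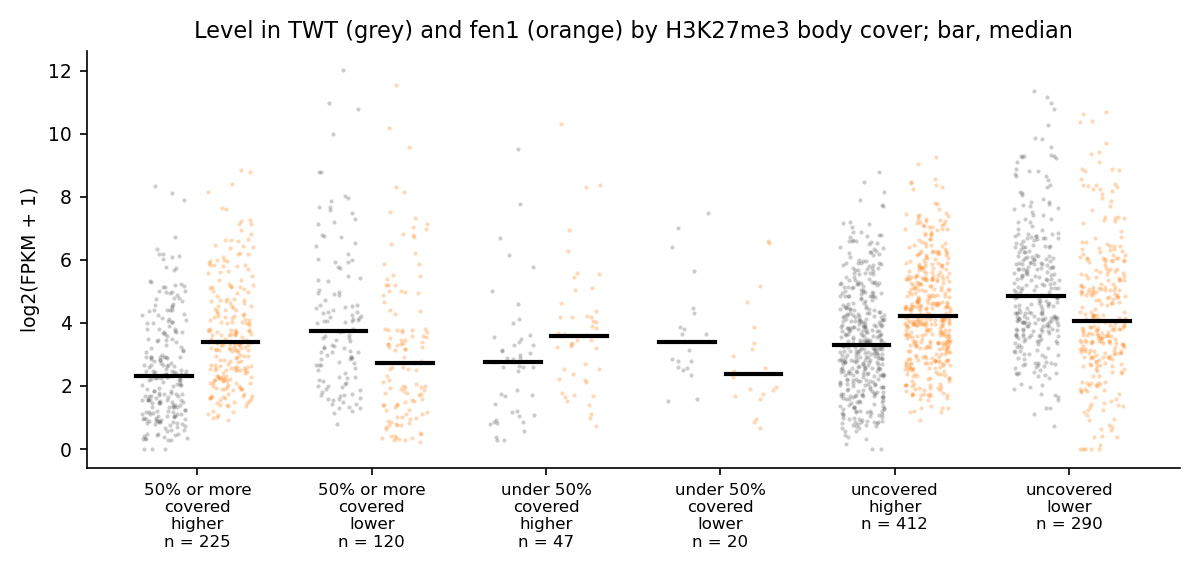
Level of each listed gene as log2(FPKM + 1) (y) in TWT (grey) and fen1 (orange), by class of H3K27me3 body cover and direction of change (x), with the median as a black bar. Covered genes sit lower than uncovered genes in both genotypes, and the groups overlap widely.

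Direction of change was related to cover only loosely. The authors' q and p values imply 20132 tested genes, of which 5.53% were called, 3.4% higher and 2.14% lower in fen1; among the listed genes alone 61.4% were higher. In the 50% class 225 of 345 genes were higher (65.2%, exact Clopper-Pearson 95% interval 59.9 to 70.2%), against 47 of 67 genes covered less (70.1%, interval 57.7 to 80.7%) and 412 of 702 uncovered genes (58.7%, interval 54.9 to 62.4%). No test over genes was made.

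That order depended on how genes were grouped by level. Low TWT genes were mostly higher in fen1 with or without the mark, and there the order turned. In the lowest quartile of TWT FPKM 79.7% of the 50% class and 90.1% of the uncovered genes were higher, and in the next 64.3% and 72.5%. In the upper 2 quartiles, where the order held, the shares were 57.7% against 52.6%, and 38.5% against 36.2%. Weighted over the quartiles, the excess of 6.53 percentage points became −4.73 points. Among genes with no H3K4me3 peak it was −10.8 points, with 66.5% of 278 covered and 77.3% of 194 uncovered genes higher. The TWT value is also the start of the fold change, so grouping by it is not independent of direction. Grouped by fen1 FPKM, the end of the same fold change, the covered class had more higher genes in all 4 quartiles (56.6% against 53.4%, 68.5% against 55.2%, 77.6% against 63.9% and 67.7% against 59.4%). Grouped by mean level over both genotypes, the shares were 67.9% against 71.1% in the lowest quartile, then 71.8% against 65.7%, 60.6% against 58.6%, and 55.0% against 45.9%.

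Among the listed genes, covered ones changed by a larger factor than uncovered ones. Every listed gene was called by the authors' test, so smaller changes that were not called are missing from both classes. Covered genes were also the more weakly expressed. Whether a weakly expressed gene needed a larger change to be called was not tested, so the difference is not read as a property of the mark. The median absolute log2 fold change per the authors' deposited table was 1.13 over 342 genes of the 50% class, 1.07 in the genes covered less and 0.75 over 695 uncovered genes. A change of at least 2-fold was reached by 59.4% of the 50% class and 30.1% of the uncovered, where the listed genes above 0 in both genotypes gave 40.5% and all tested genes 2.22%. In the 50% class 139 of these were higher and 64 lower, where of the 1104 listed genes above 0 in both genotypes 320 and 127 were. Of all tested genes 1.59% and 0.631% were. The shares of all tested genes include genes that were not called, so they are not like the shares within the list. How many tested genes were covered is not known. Genes with 50% or more of the upstream kilobase covered as well reached it in 42 of 56 cases, and those with full body cover in 72.1% of 104. Fully covered genes were shorter, with a median of 1291 bp against 1956.5 bp for the rest of the class. Shorter genes reached 2-fold more often in both classes. Below the median length 65.9% of the 50% class did so, against 51.9% of the longer genes. In uncovered genes the shares were 37.7% and 22.2%. The part of length was not tested.

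The level moves with this result. By quartile of the mean log2(FPKM + 1) over both genotypes, the share changed at least 2-fold was 83.2% for the 50% class and 66.1% for uncovered genes in the lowest quartile. It was 55.3% and 34.5% in the next, 39.4% and 26.6% in the third, and 35.0% and 10.0% in the highest. The covered class was thus higher in each quartile. From the lowest to the highest quartile the median absolute log2 fold change fell from 1.51 to 0.67 in the 50% class. In uncovered genes it fell from 1.25 to 0.58. Genes are not replicates of a genotype and the intervals cover counting error only, so the differences were not tested. Without H3K4me3 the medians were 1.22 for covered and 1.10 for uncovered genes, a difference of 0.12 where that over all genes was 0.38. The part of the other marks and of the level in the result was not tested further.

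**Figure D4:**
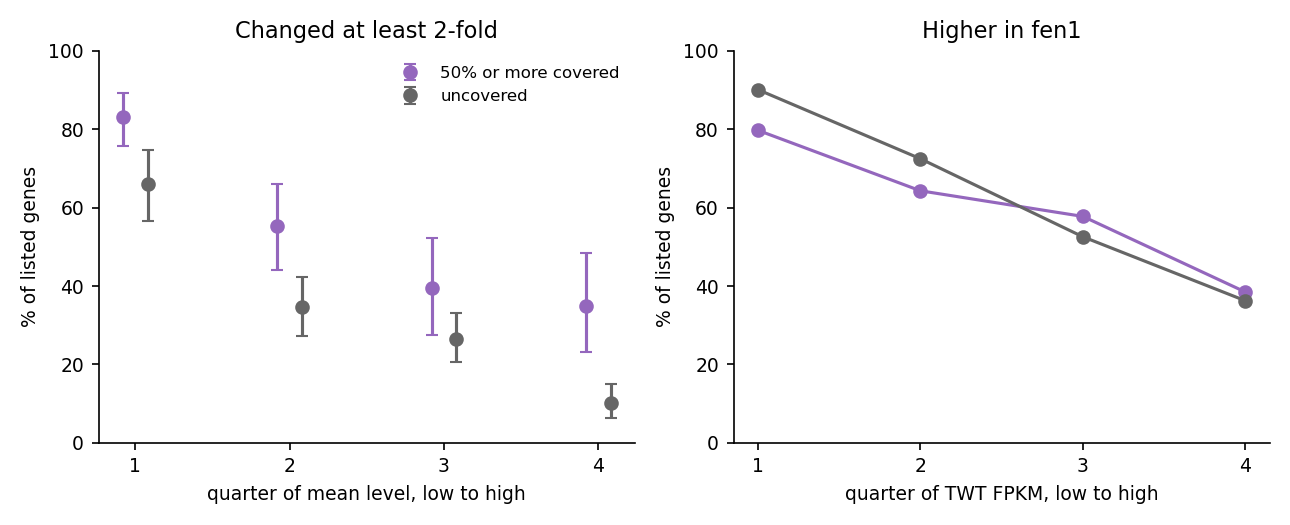
Left, percent of listed genes changed at least 2-fold (y) by quartile of mean level (x) for the 50% class (purple) and uncovered genes (grey), with exact 95% binomial intervals that cover counting error only. Right, percent higher in fen1 (y) by quartile of TWT FPKM (x) for the same classes; the purple points lie above the grey in each quartile on the left and cross them on the right.

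The 8 largest rises under the mark came from genes of different kinds. CRU3, a gene for cruciferin (a storage protein of seeds), was covered from end to end by a peak of score 930 that ran 2929 bp past the gene, and it went from 0.33 to 7.65 FPKM per the authors' deposited table. CYP82C2, a cytochrome P450 of indole defence metabolism, was covered whole with 93.1% of its upstream kilobase (best score 1043) and went from 0.80 to 11.2 FPKM per the authors' deposited table. CYP71A12, which acts in the same metabolism, was covered over 98.6% of the body and went from 6.65 to 84.1 FPKM per the authors' deposited table; its close copy CYP71A13 was covered over 86.3%, and no source used here says how reads were shared out between the pair.

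The cupin gene AT5G38910 had no cover upstream and its first covered base 20.2% into the body, and it went from 5.41 to 85.8 FPKM per the authors' deposited table. AT2G30660, annotated as a Clp protease/crotonase family gene, lay within a peak of score 701 that ran 5086 bp past its end, and went from 0.27 to 3.94 FPKM per the authors' deposited table. AT1G47980 was covered over 90.9% and went from 0.24 to 3.48 FPKM, and the berberine-type oxidase gene AT1G26410, covered whole, from 0.23 to 2.95 FPKM per the authors' deposited table. The extensin-like gene AT1G26240 had the weakest peak of the 8 (score 64.8, 68.0% covered) and went from 1.64 to 20.4 FPKM per the authors' deposited table. None of these 8 genes had an H3K4me3 or H3K9me2 peak over the body, and 5 of them were under 1 FPKM in TWT.

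Of the 8 largest falls under the mark, GSTF14 and GRP-3 changed by the largest factor. GSTF14, a glutathione transferase gene, was covered over 81.4% of the body, from 17.3% of its length on, and went from 64.7 to 0.54 FPKM per the authors' deposited table. GRP-3, which encodes a glycine-rich protein, was covered over 85.8% with an H3K4me3 peak over its whole body, and went from 2033 to 35.6 FPKM per the authors' deposited table. Neither had any of its upstream kilobase covered, and their best scores of 108 and 108 were below the class median of 217.

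AIR1, an auxin-induced root gene, and the berberine-type oxidase gene AT5G44440 were both covered whole. AIR1 went from 8.49 to 0.86 FPKM and AT5G44440, with 86.5% of its upstream covered, from 4.34 to 0.43 FPKM per the authors' deposited table. AT3G28320 (78.9% covered) went from 15.97 to 1.54 FPKM per the authors' deposited table. The other 3 of the 8 largest falls began between 1.29 and 2.24 FPKM per the authors' deposited table. They were AT4G06534 (78.8% covered, with H3K4me3 over 83.8%), the leucine-rich repeat kinase gene AT1G07550 (84.8%) and the transferase gene AT1G33320 (50.1%).

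**Figure D5:**
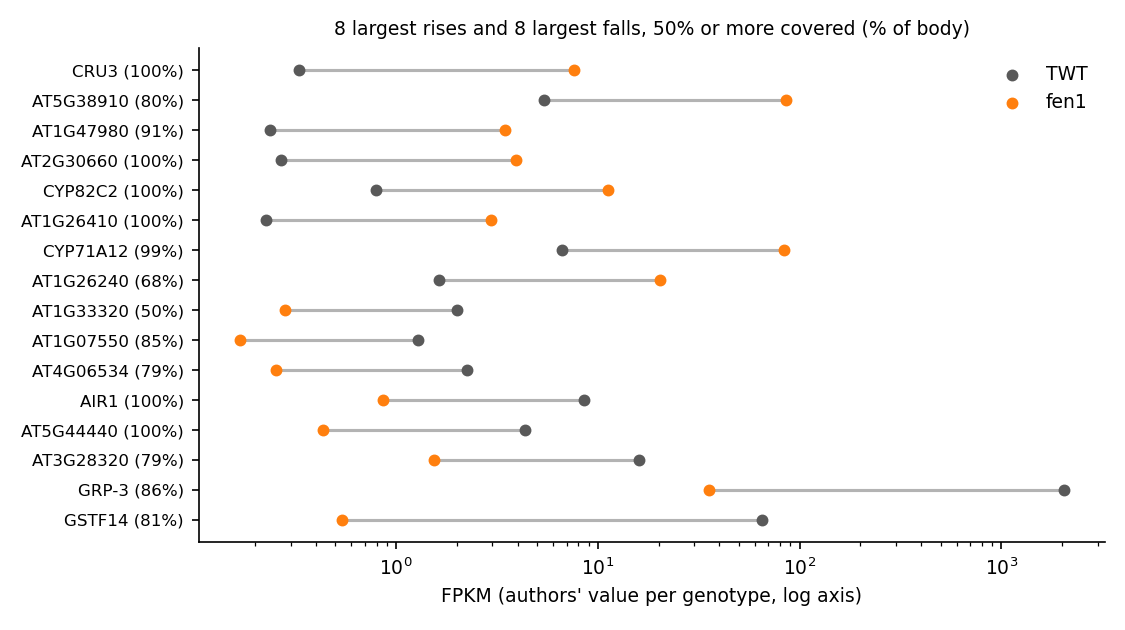
FPKM in TWT (grey) and fen1 (orange), the authors' single value per genotype, on a log axis (x) for the 8 largest rises (top) and 8 largest falls (bottom) of the 50% class, with the percent of the body covered beside each name. TWT values run from 0.23 to 6.65 FPKM for the rises and from 1.29 to 2033 FPKM for the falls, so the ranges overlap; a fall needed at least 1 FPKM in TWT to be named, which a rise did not.

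Some covered genes were among the most abundant transcripts of the table. AT5G42530, of no stated function, was covered whole by both H3K27me3 (best score 131) and H3K4me3 and stood at 4195 FPKM in TWT and 2986 FPKM in fen1 per the authors' deposited table. PRP4, a proline-rich cell wall protein gene, carried H3K27me3 over 90.7% and H3K4me3 over 93.7% of the body and went from 1762 to 1168 FPKM per the authors' deposited table. AT2G25510, covered whole by both marks, went from 1021 to 758 FPKM per the authors' deposited table. With GRP-3 these were the 4 most abundant of the class in TWT, and all had H3K4me3 over most of the body. The next was the ribosomal RNA gene AT3G41768 (446 and 283 FPKM per the authors' deposited table), wholly under H3K27me3 and H3K9me2. Ribosomal RNA genes lie in many near-identical copies, so its peaks and its level are uncertain.

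Genes with the strongest peaks that were above 0 in both genotypes moved either way. CRA1, another cruciferin gene, had the highest best score of the class (1821) with 92.4% covered and went from 2.61 to 12.0 FPKM per the authors' deposited table. AT4G22505, a lipid transfer protein gene, came next (1664, with its whole upstream kilobase covered) and went from 110 to 31.5 FPKM per the authors' deposited table. AT1G14960, annotated as polyketide cyclase and lipid transport, scored 1404 and went from 8.14 to 2.58 FPKM, and GH3.3, an auxin-conjugating enzyme gene, scored 1117 and went from 13.8 to 23.9 FPKM per the authors' deposited table. AT5G51500, annotated in the invertase and pectin methylesterase inhibitor superfamily, scored 1090 and went from 1.15 to 2.76 FPKM per the authors' deposited table.

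Of the 5 genes listed at 0 in TWT, 3 were in the 50% class, and of the 5 listed at 0 in fen1, none. They were STK, a MADS-box gene of ovule identity (97.9% covered, with a best score of 1232 that ranks between those of AT1G14960 and GH3.3), M10, a late embryogenesis abundant protein gene (covered whole, with its whole upstream kilobase) and AT3G62990 (84.1%), listed at 1.03, 0.96 and 1.62 FPKM in fen1 per the authors' deposited table. No fold change can be given for them.

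The threshold of 50% did not fall at a gap in the distribution, with 19 genes at 40 to under 50% and 32 at 50 to under 60%. Just inside it were AT1G33320 (50.1%), AT2G22590 (50.2%) and UPI (50.4%), and just outside EXT6 (49.1%), PME61 (49.0%) and DIN2 (48.5%). Among genes covered over less than 50%, the largest rises per the authors' deposited table were those of DIN2, a beta-glucosidase gene (0.78 to 4.78 FPKM), the calcium-dependent kinase gene CPK22 (0.29 to 1.62 FPKM) and AT1G30700 (8.86 to 42.7 FPKM). The largest falls there were those of the extensin gene EXT6 (19.1 to 0.92 FPKM), AT4G22485 (84.4 to 24.2 FPKM) and AT3G45070 (2.00 to 0.60 FPKM) per the authors' deposited table. EXT6 also carried H3K9me2 over 61.2% of its body, and extensin repeats make its read assignment uncertain.

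A mark upstream of a body free of it was rare. Of the 702 uncovered genes, 13 had 50% or more of the 1 kb upstream covered, of which 8 were higher in fen1. Per the authors' deposited table AT3G49160 (57.4% of the upstream) went from 2.27 to 0.30 FPKM and AT2G44370 (58.2%) from 5.44 to 18.4 FPKM. AT5G07610 (74.7%) went from 6.35 to 16.6 FPKM, TMM, a receptor-like protein gene of stomatal patterning (55.8%), from 16.5 to 42.6 FPKM, and AT3G17520 (66.2%) from 2.11 to 4.99 FPKM per the authors' deposited table. The upstream kilobase may hold a neighbouring gene, whose cover is then counted here.

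None of Polycomb's own genes and few of its best-known targets were called. Few of all tested genes were called either, and nothing particular to either list is read from the counts. None of 27 Polycomb and Trithorax components was in the table, beside 5.53% of all tested genes called in either direction. Of 34 known Polycomb targets 2 were called, both higher, beside 3.4% of all tested genes called higher. These were STK and the floral MADS-box gene SEP3, covered over 99.7% with 59.1% of its upstream, which went from 1.33 to 3.58 FPKM per the authors' deposited table (q = 0.0117). The other 32 targets have no value here, and the table does not show which of them were tested.

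Markers of other tissues were checked beside these changes, where 5.53% of all tested genes were called, 3.4% higher and 2.14% lower, and 345 of the 1114 listed genes were in the 50% class. Of 13 seed and embryo markers 4 were called, all higher and all in the 50% class, namely CRU3, CRA1, the oleosin gene OLEO2 (55.0% covered, 0.96 to 3.62 FPKM) and the peroxiredoxin gene PER1 (covered whole, 1.51 to 5.42 FPKM) per the authors' deposited table. Their TWT levels ran from 0.33 to 2.61 FPKM and their fen1 levels from 3.62 to 12.0 FPKM per the authors' deposited table, and the other 9 have no value. Of 6 anther, pollen and gamete markers 1 was called, GEX1, which had no H3K27me3 and went from 0.13 to 2.33 FPKM per the authors' deposited table. Of 8 root markers the root hair expansin genes EXPA7 (covered whole, 3.59 to 9.21 FPKM) and EXPA18 (97.5%, 7.37 to 14.3 FPKM) were called higher per the authors' deposited table. Of 4 leaf photosynthesis markers 1 was called, PSAF, uncovered and lower, from 2024 to 1371 FPKM per the authors' deposited table. The part of cell composition in the changes of covered genes was not tested.

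By the words of the deposited descriptions, a grouping chosen after the values were seen, peroxidase and cell wall protein genes had the highest shares in the 50% class. Beside these, 342 of 1097 listed protein-coding genes (31.2%) were in the class. Of the whole class 65.2% were higher in fen1, and of all listed genes 61.4%. Of 23 listed peroxidase genes 15 were in the 50% class (65.2%), of which 13 were higher, and of all 23 whether covered or not 20 were higher. DOX1, an alpha-dioxygenase gene that the description words place here, went from 30.6 to 195 FPKM (86.5% covered), AT1G14550 from 0.38 to 3.56 FPKM (covered whole, with 71.2% of its upstream) and AT5G64120 from 26.5 to 61.0 FPKM (covered whole) per the authors' deposited table. The 2 lower ones were AT5G64110, which went from 6.26 to 3.93 FPKM per the authors' deposited table, and AT1G44970, from 12.4 to 8.09 FPKM.

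Of 19 extensin and proline-rich genes 11 were in the class and 10 of these were higher, where 16 of all 19 were, with log2 fold changes per the authors' deposited table from −0.59 for PRP4 to 3.64 for AT1G26240. AT3G54580 went from 71.8 to 140 FPKM and AT3G09925, whose upstream kilobase was wholly covered, from 10.0 to 26.1 FPKM per the authors' deposited table. Of 31 expansin, xyloglucan and pectin enzyme genes 13 were in the class, 9 higher and 4 lower. Their share of higher genes, 69.2%, was near the 65.2% of the whole class. The xyloglucan enzyme gene XTH14 went from 18.0 to 43.8 FPKM (covered whole) per the authors' deposited table. Reads of such repeats and families may be shared between members.

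Cytochrome P450 genes under the mark were mostly lower. Of 30 listed, 17 were higher, and 13 were in the 50% class, of which 9 were lower and 4 higher. The 4 higher were CYP82C2, CYP71A12, CYP71A13 and CYP94B3, a jasmonate-inactivating enzyme gene that went from 0.86 to 2.19 FPKM per the authors' deposited table. The lower ones included the sterol desaturase genes CYP710A3 (1.81 to 0.28 FPKM) and CYP710A4 (2.29 to 0.71 FPKM), CYP735A2 of cytokinin synthesis (7.504 to 1.65 FPKM) and CYP79F1 of glucosinolate synthesis (206 to 132 FPKM) per the authors' deposited table. MYB29 and MYB76, which switch on aliphatic glucosinolate genes, were also covered (83.3% and whole) and went from 15.4 to 7.77 FPKM and from 5.39 to 2.03 FPKM per the authors' deposited table.

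Of 42 genes for MYB, bHLH, NAC, WRKY, ERF and MADS transcription factors 15 were in the class (35.7%), 8 higher and 7 lower. That share in the class was near the 31.2% of listed protein-coding genes, so nothing particular to these factors is read from it. SPCH, which starts the stomatal lineage, went from 10.3 to 17.3 FPKM with 65.3% covered, and WRKY31 from 2.14 to 5.06 FPKM with 95.2% covered, per the authors' deposited table. Lipid transfer genes had 11 of 22 in the class, 5 higher and 6 lower. Glutathione transferases were the opposite case, with 1 of 13 covered, GSTF14, the only one of the family that was lower. UDP-glycosyltransferases had 3 of 18 in the class, berberine-type oxidases 6 of 11 and protein kinases 9 of 28. The share for protein kinases, 32.1%, was again near that of listed protein-coding genes.

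Listed neighbours tended to move together in both classes. In the 50% class 38 pairs of consecutive genes lay within 10 kb of each other, and 33 pairs (86.8%) moved in the same direction. Among uncovered genes 51 of 66 pairs (77.3%) did so, and the difference was not tested. With 65.2% of the class and 58.7% of uncovered genes higher in fen1, many pairs would agree without any link between neighbours. Some genes stand in consecutive pairs, so the pairs are not separate cases. On chromosome 4, AT4G22490, AT4G22505 and AT4G22517, all lipid transfer genes covered over at least 99% with 97.6 to 100% of the upstream, fell from 107 to 41.4, from 110 to 31.5 and from 53.5 to 19.7 FPKM per the authors' deposited table. On chromosome 5, LTP3 and LTP4 were covered whole and rose from 12.9 to 26.2 and from 2.61 to 11.2 FPKM per the authors' deposited table. Many of these pairs are tandem copies, among which reads may be shared.

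H3K4me3, a mark of active promoters, was largely absent where H3K27me3 covered the body. A TWT H3K4me3 peak overlapped 67 of the 345 genes of the 50% class (19.4%, exact Clopper-Pearson 95% interval 15.4 to 24.0%), 24 of 67 covered less (35.8%) and 508 of 702 uncovered genes (72.4%). The 67 with both marks had a TWT median of 12.1 FPKM, against 4.95 FPKM for the other 278 per the authors' deposited table. Their median best H3K27me3 score was 123 against 229. H3K9me2, the mark of heterochromatin, overlapped 23 genes of the class (6.67%), whose median length was 3580 bp, and 6 of the uncovered.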

How the data were processed

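Per the submitters' processing notes the software included Cuffdiff 2.1.1, TopHat2 2.1.1, Bowtie 0.12.9 and SAMtools, on TAIR10, without saying which step each served. The sources used here do not give strand handling, annotation, filters or peak-calling options. The layout of the deposited RNA table is Cuffdiff's, so its values were read as FPKM that the authors combined over 2 libraries per genotype. Its log2 fold changes are the authors' deposited values, fen1 over TWT with no pseudocount. The authors' deposited p-values and q-values (p floor 5e-05) were used as they are, and all 1114 genes are marked significant. The deposited peak lists give 1 score per peak from 1 library each; peak names point to MACS.

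BED starts were made 1-based. Cover is the percent of bases from gene start to end, or of 1 kb upstream by strand, under peaks; the code was checked on simulated intervals. Calculations used Python 3.11.15, pandas 2.3.3, NumPy 2.4.6 and SciPy 1.17.1. The implied number of tests is q times rank over p. Gene names came from TAIR10.1 RefSeq (1113 of 1114 matched). No test over genes was made, and none between libraries, since the table gives 1 value per genotype; intervals cover counting error only. Members, lists and the rule for named genes were chosen with earlier results of these data known. The rule names FEN1, the 8 largest rises and falls of the 50% class (above 0 in each genotype and reaching 1 FPKM in either), its 5 most abundant and 5 best-scored genes under the same level filter, which leaves out STK, genes listed at 0, the 3 nearest the threshold on each side, the 3 largest rises and falls covered less, 5 covered upstream only, and called list members. Genes named by family or neighbourhood were chosen after their values were seen. Promoter sequences and motifs were not analysed here.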

Additional observations from a re-analysis of the deposited data

Results flagged for a closer look

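Outside the nuclear chromosomes used above, the TWT H3K27me3 list held 38 peaks on the chloroplast chromosome (0.41% of 9239 peaks, 42775 bp), with a median score of 124 and a highest score of 709. They are listed here because no comparison used them. The H3K4me3 list held 36 chloroplast peaks, and the H3K9me2 list 6 there and 1 on the mitochondrial chromosome. No untreated or input peak list was analysed here to set beside them.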

How the results depend on the processing

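The number of genes in the 50% class was between 268 and 392 at thresholds of 75% and 25% and 346 with peaks joined over gaps of up to 500 bp, but 219 with the upper scoring peaks alone. The excess of higher genes in that class over uncovered genes (6.53 points, Newcombe interval 0.24 to 12.6) reversed among genes changed at least 2-fold (−5.21 points), below the median TWT FPKM (−5.99), without H3K4me3 (−10.8) and within quartiles of TWT FPKM (−4.73, an alternative chosen after seeing the data); the other 9 alternatives kept its sign, the smallest being 1.98 points at q under 0.01 (67.5% against 65.5%). The TWT level difference of −1.29 kept its sign in all 6 alternatives and moved to −0.90 with the upper scoring peaks and −0.99 with at least 1 FPKM in both genotypes. The difference in size of change (0.38) kept its sign in all 7 and moved to 0.20 on the log2(FPKM + 1) scale, 0.12 without H3K4me3 and 0.21 within quartiles of mean level, the last 2 chosen after seeing the data, as were the upper-score and length alternatives of this result. With 500 bp upstream 31.3% of the class had 50% or more covered; with 50% of the body required, 14.5% carried H3K4me3 and 2.32% H3K9me2. The cause of these moves was not tested. No paired analysis was possible because the table gives 1 value per genotype, so leaving out a library was not run either. The strand alternative for promoter motifs was not run, as no promoter sequence was used here. Depth is unknown, so low FPKM values are the least certain.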

Other observations

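The share of listed genes in the 50% class was similar on every chromosome, from 28.1% of 260 genes on chromosome 5 to 33.8% of 195 on chromosome 2. Of the 9 listed genes typed as other RNA, none was touched by an H3K27me3 peak, and 7 of them were lower in fen1. Of all 1114 listed genes 412 were touched and 38.6% were lower. Of the 2 transposable element genes 1 was in the 50% class, where 345 of all listed genes were, and both were lower. With so few genes, nothing particular to these types is read from the counts.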
